A study of Mus musculus with 18 samples.

Results

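A tumoroid labelled as coming from bronchiolar BASCs of the mouse lung was set against a pair of organoid cultures, 1 labelled bronchiolar BASC and 1 labelled mixed BASC, to describe which airway programs were kept, lost or gained. These are 3 of the 18 RNA sequencing samples of the series: the only tumoroid labelled as coming from transplanted bronchiolar BASCs, and the Ad-Cre organoids labelled bronchiolar BASC and mixed BASC. They were chosen by their labels for origin, virus and transplantation. BASCs, the bronchioalveolar stem cells at the junction of airway and alveolus, were sorted in the study as Sca1-positive cells of the distal lung.

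The study asks how the cell of origin shapes lung cancer driven by EGFR. Its mice carry a human EGFR transgene with the T790M and L858R mutations, knocked into Col1a1 under a CAG promoter behind a stop cassette flanked by lox sites. Sorted cells were infected before plating with an adenovirus carrying Cre (Ad-Cre), which removes the stop cassette, or with one carrying GFP (Ad-GFP). The labels bronchiolar, alveolar and mixed refer to how BASC organoids looked when they were picked apart at passage. A culture labelled mixed contains both forms. Ad-Cre cells were then placed in the lungs of nude recipients (Foxn1 Nu/Nu) through the trachea, and the tumours were dissociated and regrown in three-dimensional culture as tumoroids.

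Each of the 3 groups is 1 culture and 1 library, and all 3 were treated with Ad-Cre. Age and sex of the donor mice are not in the labels. Labels do not say whether the bronchiolar organoid that was sequenced is the culture that was transplanted, and the tumoroid shares the number in its title with mixed BASC tumoroids without a statement that they came from the same mouse. All cultures were grown in Matrigel with mesenchymal and endothelial support cells from neonatal lung. The organoid libraries were TruSeq libraries run on a HiSeq, and the tumoroid libraries followed a BGI protocol and were run on a DNBSEQ instrument. Sequencing platform, transplantation and growth as a tumour therefore separate the same samples and cannot be told apart. The mixed BASC Ad-GFP organoid, with the same sorting label and no Cre, stands beside the key values as the control culture.

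The lining of the conducting airway is made of a few cell types with distinct programs. Club cells secrete small proteins such as the secretoglobins and detoxify inhaled compounds, goblet cells make gel-forming mucins, and multiciliated cells build motile cilia that carry mucus upward. Basal cells, anchored to the basement membrane and marked by keratins 5 and 14 and by the transcription factor p63, renew the others, and in injured or tumour tissue airway cells can take on features of squamous or alveolar epithelium.

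Levels are given in CPM, a gene's count relative to the total of its library after scaling between libraries, and differences in log2 CPM. A gene was called higher when the tumoroid lay at least 1 log2 unit above the higher organoid, and lower when it lay at least 1 unit below the lower organoid. Of 14880 genes with at least 1 CPM in at least 1 of the 3 samples, 788 were higher (5.30%) and 1653 were lower (11.1%), and the median difference over all genes was -0.05. Counts of called members in each list are to be read against these shares. With the mixed organoid left out, 1210 genes were higher and 2134 lower, and with log2(TPM + 1) in place of log2 CPM the counts were 431 and 1057. The organoids differed from each other by at least 1 log2 unit for 898 genes (6.03%). Their median absolute difference was 0.20, against 0.46 between the tumoroid and the organoid mean. Of the called genes, 677 of the higher (85.9%) and 1352 of the lower (81.8%) also lay at least 1 unit from the mixed Ad-GFP organoid in that direction. With a single bronchiolar tumoroid and 1 library of each organoid there is no replicate check, and no difference was tested.

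**Figure D1:**
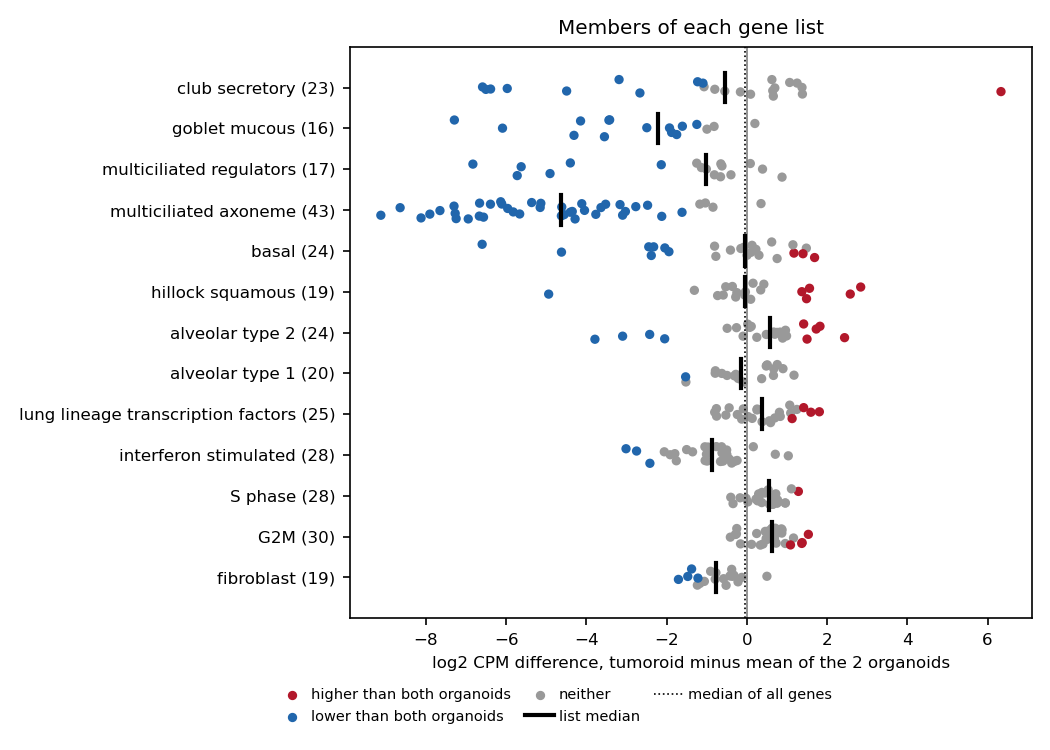
Difference in log2 CPM between the tumoroid and the mean of both organoids (horizontal axis) for the tested members of 13 gene lists, 1 point a gene, with the number tested in brackets and members at 0 counts drawn at their value with a prior count. Red points are higher than both organoids, blue points lower than both and grey points neither, black bars are list medians (-4.62 for the axoneme list) and the dotted line is the median of all genes, -0.05.

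The 3 genes that stand for the airway cell types took different courses. Scgb3a2, a secretoglobin of respiratory secretory cells, was at 927 CPM in the tumoroid, 218 in the bronchiolar organoid and 578 in the mixed organoid. Krt5, the basal keratin, was at 144 CPM in the tumoroid, 509.9 in the bronchiolar organoid and 1018 in the mixed organoid. Foxj1, the transcription factor that switches on the motile cilium genes, was at 222 CPM in the tumoroid, 106 in the bronchiolar organoid and 138 in the mixed organoid. Only Krt5 passed the rule, 3.54-fold lower than in the bronchiolar organoid, while Scgb3a2 and Foxj1 lay above both organoids by less than the rule asks, at 1.60 and 1.61 times the higher of them. Against the bronchiolar organoid alone both would be called higher. In the Ad-GFP organoid the 3 genes stood at 938, 1648 and 491 CPM. All 3 markers of the airway are thus present in the tumoroid, and in the other 7 tumoroids of the series, 6 from transplants and 1 autochthonous, Scgb3a2 and Krt5 reached at most 0.454 and 0.371 CPM and Foxj1 at most 17.3. The study grouped its tumoroids as bronchiolar or alveolar by lineage markers, and KRT5, SOX2 and CCSP were among those it stained. A contrast of airway markers with the other tumoroids may therefore partly restate that grouping.

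**Figure D2:**
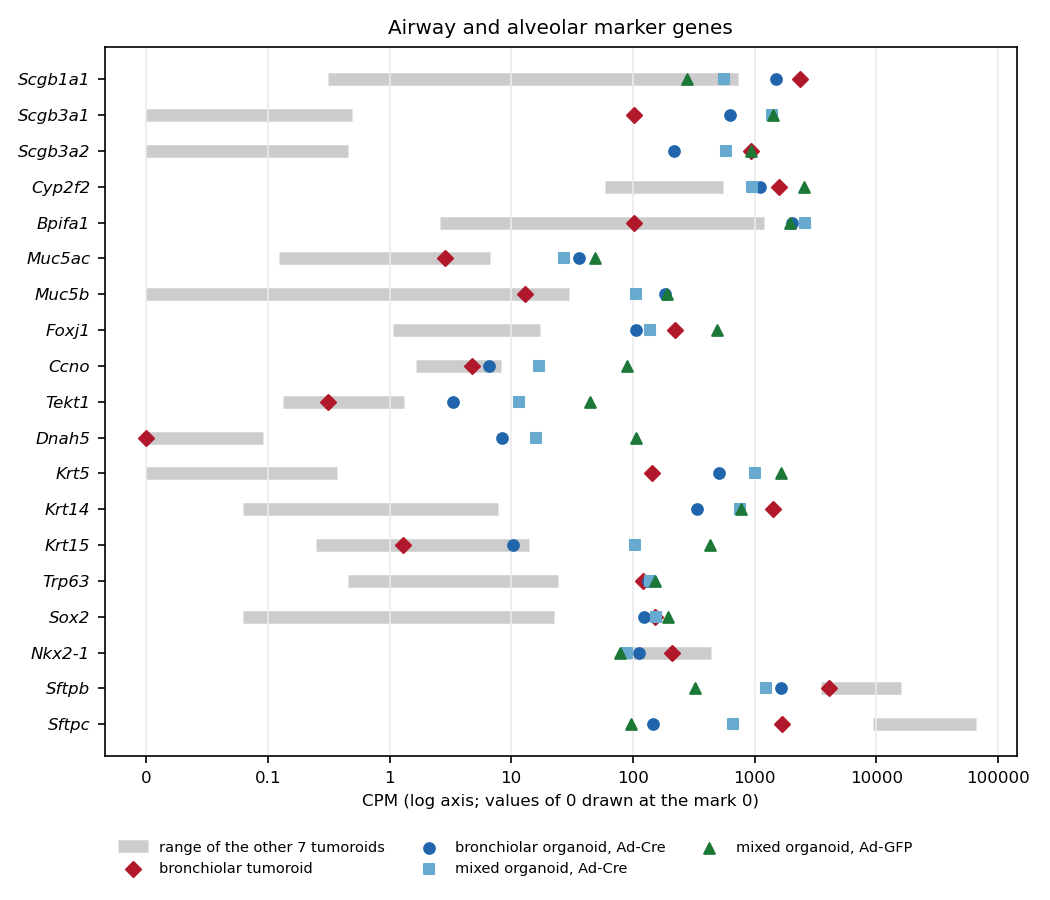
Level in CPM (horizontal log axis, values of 0 drawn at the mark 0) of 19 airway and alveolar marker genes in the tumoroid (diamond), the bronchiolar (circle) and mixed (square) Ad-Cre organoids and the mixed Ad-GFP organoid (triangle), with grey bars for the range of the other 7 tumoroids. For Scgb3a2, Krt5 and Sox2 the tumoroid lies nearer to the organoids than to the other tumoroids, while its Dnah5 is at 0 counts.

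Of the 23 tested members of the club and secretory list (26 in the list), 1 was higher and 9 were lower. These are 4.35% and 39.1% of those tested, against 5.30% and 11.1% of all genes. The median difference was -0.55 against -0.05 over all genes. The sign of this median depended on the setting. It was -0.16 at 10 CPM, and 0.66 with 9 members higher when the mean difference of the 6 other transplant tumoroids was subtracted. Summed over the list the level was 14427 CPM in the tumoroid, 13536 in the bronchiolar, 15237 in the mixed and 20507 in the Ad-GFP organoid. Scgb1a1, the classical club cell secretoglobin, was at 2369.6 CPM in the tumoroid, 1488 in the bronchiolar organoid and 562 in the mixed organoid. Cyp2f2, a cytochrome of club cells that activates inhaled toxicants, was at 1589 CPM in the tumoroid, 1110.2 in the bronchiolar organoid and 959 in the mixed organoid, and neither gene passed the rule. In TPM, which allows genes to be compared, Scgb1a1 stood at 8473 in the tumoroid, above Scgb3a2 at 2824 and Cyp2f2 at 1337. Cbr2, a carbonyl reductase gene and the member with the highest mean CPM over the 3 samples, had 2092 CPM against 3044 and 4355, though in the tumoroid alone Hp had more counts. Haptoglobin (Hp), at 2939 CPM against 1626 and 938, and Gabrp, a subunit of a GABA receptor, at 1242 CPM against 749.5 and 826, also stayed within the rule. The summed level of the club list was thus near that of the Ad-Cre organoids, although 9 members were lower. Of the 23 tested members, 12 lay above all other 7 tumoroids, against 23.3% of all genes. Against either organoid alone 3 members were higher, Scgb1a1 being 1 of them against the mixed organoid.

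A part of the secretory program was lower. Bpifa1, a surfactant-like defence protein of the upper airway, was at 101 CPM in the tumoroid, 2015 in the bronchiolar organoid and 2591 in the mixed organoid, 19.9-fold below the lower organoid. Its relative Bpifb1 was at 1.16 CPM against 69.9 and 147. Scgb3a1, the secretoglobin of larger airways, was at 102 CPM in the tumoroid, 627 in the bronchiolar organoid and 1379.7 in the mixed organoid, 6.13-fold below the bronchiolar organoid. These 3 genes belong to the proximal, mucus-associated end of the secretory range. Pon1, a paraoxonase, had 6 counts, at 0.268 CPM against 17.1 and 23.0. The sulfotransferase gene Sult1d1 had 0 counts in the tumoroid, at least 26.3-fold lower than in the mixed organoid, against a floor of 3 counts in the tumoroid library (0.134 CPM). Retnla, Aldh1a1 and Aox3 were 5.26-, 2.11- and 2.02-fold below the lower organoid, and Lypd2, with 3 counts, is the ninth. In a bulk culture, fewer cells of a type and less RNA per cell cannot be told apart.

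Upk3a, a uroplakin that marks a subset of club cells in the mouse airway, was the only member called higher. It stood at 93.0 CPM in the tumoroid, 1.29 in the bronchiolar organoid and 0.946 in the mixed organoid, 72.0-fold above the higher organoid. In the Ad-GFP organoid it was at 1.14 CPM and in the other 7 tumoroids it reached at most 4.17, so among the samples named it was high in the bronchiolar tumoroid alone.

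Goblet genes were lower nearly throughout, with 13 of 16 tested members (22 in the list) below both organoids and none above. The 13 are 81.3% of those tested, against 11.1% of all genes. The median difference was -2.21 against -0.05 over all genes. Of the 13, 4 were also called lower in the 6 other transplant tumoroids. Muc5ac, the gel-forming mucin of goblet cells, was at 2.86 CPM in the tumoroid, 35.8 in the bronchiolar organoid and 27.1 in the mixed organoid. Muc5b, the main secreted mucin of the healthy mouse airway, was at 12.9 CPM in the tumoroid, 185 in the bronchiolar organoid and 107 in the mixed organoid. Both mucins lay inside the range of the other 7 tumoroids, 0.124 to 6.65 CPM for Muc5ac and 0 to 29.8 for Muc5b. Agr2, a disulfide isomerase needed to fold mucins, had 4 counts and stood at 0.179 CPM against 26.3 and 48.2. Spdef, the transcription factor that drives goblet differentiation, was low in every sample, at 0.715 CPM against 2.01 and 3.16. The drop also covers the trefoil peptide gene Tff2 (2.19 CPM against 41.9 and 46.9) and the membrane mucin gene Muc4 (90.9 CPM against 446 and 588). Gp2, a glycoprotein of secretory and M cells, was at 3.26 CPM against 43.5 and 78.9, and Itln1, a lectin, at 4.69 CPM against 53.3 and 57.8. Agr3, with 0 counts, was at least 11.7-fold below the bronchiolar organoid by the same floor. In the Ad-GFP organoid Muc5ac stood at 49.2 and Muc5b at 192 CPM. Pigr, the receptor that carries IgA into the lumen and the most counted gene of the list, was at 284 CPM against 413 and 776 and missed the rule, as did the transcription factor genes Creb3l4 and Creb3l1. Muc16 was not found in the annotation.

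Of 17 regulators, all tested, 6 were lower and none was higher, with a median difference of -1.01 against -0.05 over all genes. With a filter of 10 CPM, and likewise with log2(TPM + 1), 1 regulator was lower, most of the 6 being at low levels in the organoids. The lower genes act early in the making of many centrioles per cell. Mcidas, a coactivator that commits cells to multiciliation, had 0 counts in the tumoroid against 0.973 and 5.66 CPM in the organoids. Foxn4, a transcription factor of the same step, had 0 counts against 1.02 and 6.20 CPM. Deup1, which builds the deuterosomes on which centrioles form, had 0 counts against 2.89 and 10.5 CPM. With the floor of 3 counts, Deup1 was at least 21.5-fold lower than in the bronchiolar organoid, Foxn4 at least 7.61-fold and Mcidas at least 7.25-fold. Cdc20b, host gene of the miR-449 cluster, was also at 0, and it overlaps Gpx8 on the other strand. Gmnc, which acts above Mcidas, had 3 counts in the tumoroid, and Trp73, the gene of p73, was at 0.849 CPM against 2.20 and 6.86. Ccno, a cyclin-like protein needed for centriole amplification, was at 4.78 CPM against 6.52 and 17.1 and Myb, a transcription factor of the transition, at 4.96 CPM against 7.91 and 17.8, neither of them past the rule. Rfx3 and Rfx2, factors that bind cilium gene promoters with Foxj1, did not pass either, Rfx3 at 8.32 CPM against 15.7 and 18 and Rfx2 at 17.4 CPM against 10.6 and 16.7. Without the mixed organoid 1 regulator was higher.

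The genes of the ciliary shaft were lower in near unison. Of 43 tested axoneme genes (44 in the list), 39 were lower and none was higher, with a median difference of -4.62, or -4.55 with genes at or under the floor set to 3 counts, against -0.05 over all genes. The median was -2.26 with log2(TPM + 1). With the mean difference of the 6 other transplant tumoroids subtracted it was -2.96, a value limited by counts near 0. The summed level of the list was 68.6 CPM in the tumoroid, 367 in the bronchiolar organoid, 887 in the mixed organoid and 4187 in the Ad-GFP organoid. Without Cfap43, whose counts are uncertain, the sums were 36.3, 319, 818 and 4022 CPM. For 41 of the 43 tested genes the samples stood in that order, from the Ad-GFP organoid down to the tumoroid. Foxj1 itself does not follow this order among the Ad-Cre samples, being highest in the tumoroid.

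Of the 44 genes, 10 had 0 counts in the tumoroid. Dnah5, the heavy chain of the outer dynein arm, had 0 counts against 8.45 and 16.0 CPM in the organoids, at least 63.0-fold lower. Cfap65, a cilium and flagellum protein, had 0 counts against 13.8 and 53.8 CPM, at least 103-fold lower. Hydin, of the central pair of microtubules, had 0 counts against 4.51 and 12 CPM, at least 33.7-fold lower. Cfap206 was at 0 counts too, at least 64.5-fold below the bronchiolar organoid. Tekt1, a tektin inside the doublet microtubules, had 7 counts and stood at 0.313 CPM against 3.33 and 11.6. Rsph4a, of the radial spoke head, was at 0.537 CPM against 7.39 and 12.5, and Tppp3, a tubulin-binding protein abundant in ciliated cells, at 2.24 CPM against 34.4 and 92.0. The 4 tested genes that were not called are Tekt2, Rsph9, Cfap126 and Cfap43, named after their values were seen, at 1.43, 3.76, 10.7 and 32.2 CPM in the tumoroid. Cfap43, the most counted gene of the list, lies on the opposite strand over Gsto1, which had 663 CPM in the tumoroid, so its counts are uncertain.

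**Figure D3:**
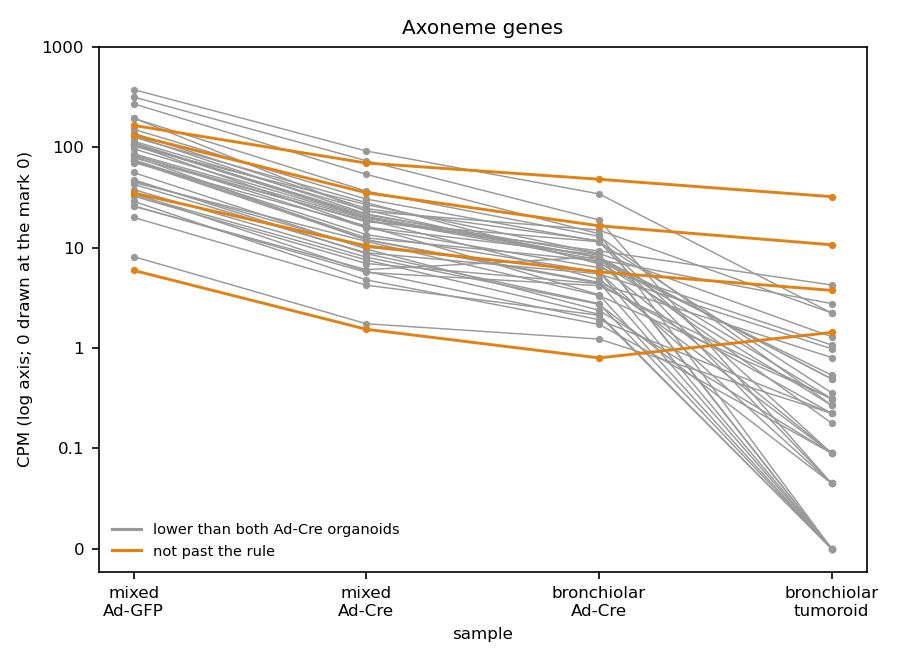
Level in CPM (vertical log axis, 0 drawn at the mark 0) of the 43 tested axoneme genes in the mixed Ad-GFP organoid, the mixed and bronchiolar Ad-Cre organoids and the tumoroid, 1 line a gene. Grey lines are the 39 genes lower than both Ad-Cre organoids and orange lines the 4 that were not past the rule, and the sum over all 44 goes from 4187 CPM at the left to 68.6 at the right.

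Promoters of the axoneme list were searched for a sequence motif, to describe the list. RFX factors bind the X-box, and its half-site GTTGCC, which on the opposite strand reads GGCAAC, was looked for on both strands in RefSeq promoters of build GRCm38.p6, which run from 250 bases before to 50 after the gene start. Of the 44 genes, 36 had a promoter in the table, and 18 of the 36 (50%) hold the half-site, against 3423 of 27025 promoters in all (12.7%). A match describes the sequence and was not tested as a binding site. The list was made of known cilium genes and the share was taken whatever their calls. It therefore says nothing about the lower levels in the tumoroid. To show the motif in its setting, 3 promoters are printed with the half-site in capitals, chosen after their values were seen as the largest drops among lower genes that hold it: Cdhr4, a cadherin-related gene, at chr9:107992207-107992506 on the plus strand, Fam183b at chr11:58801911-58802210 on the minus strand, and Hydin at chr8:110266727-110267026 on the plus strand.
Cdhr4: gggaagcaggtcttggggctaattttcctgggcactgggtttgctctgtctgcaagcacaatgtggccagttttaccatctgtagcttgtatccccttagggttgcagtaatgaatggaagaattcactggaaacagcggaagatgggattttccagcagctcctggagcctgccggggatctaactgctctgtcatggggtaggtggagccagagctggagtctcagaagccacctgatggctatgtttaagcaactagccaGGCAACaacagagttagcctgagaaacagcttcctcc
Fam183b: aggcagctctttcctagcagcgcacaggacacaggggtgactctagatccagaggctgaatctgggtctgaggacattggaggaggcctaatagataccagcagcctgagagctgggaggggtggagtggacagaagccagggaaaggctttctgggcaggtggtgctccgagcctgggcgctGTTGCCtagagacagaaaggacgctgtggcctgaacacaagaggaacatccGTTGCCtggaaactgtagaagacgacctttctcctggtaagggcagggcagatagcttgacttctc
Hydin: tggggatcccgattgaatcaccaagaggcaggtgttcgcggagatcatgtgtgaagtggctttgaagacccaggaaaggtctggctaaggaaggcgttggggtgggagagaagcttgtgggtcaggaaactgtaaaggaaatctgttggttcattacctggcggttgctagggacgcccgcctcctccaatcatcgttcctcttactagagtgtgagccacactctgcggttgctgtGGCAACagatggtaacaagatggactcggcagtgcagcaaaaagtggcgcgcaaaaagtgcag
Fam183b holds 2 copies and the others 1 each. Cdhr4, Fam183b and Hydin were at 73.7, 16.5 and 12 CPM in the mixed organoid, and at 318, 70.4 and 72.5 in the Ad-GFP organoid. Dnah5 and Cfap206, both at 0 counts in the tumoroid, hold none, and Tekt2, which was not called, holds 2.

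The basal program was divided. Of 24 genes, all tested, 3 were higher and 7 lower, and the median difference of -0.04 is close to the -0.05 over all genes. Among the keratins, Krt5 was lower as given above. Krt17, a keratin of stressed and basal cells, was at 5.23 CPM in the tumoroid, 570.2 in the bronchiolar organoid and 458 in the mixed organoid, 87.6-fold below the lower organoid. Krt15, of quiescent basal cells, was at 1.3 CPM in the tumoroid, 10.4 in the bronchiolar organoid and 105 in the mixed organoid, and its organoid values are far apart. Krt14, the partner of Krt5 in basal cells, was at 1408 CPM in the tumoroid, 337 in the bronchiolar organoid and 756 in the mixed organoid, and did not pass the rule. Against the bronchiolar organoid alone it would be called higher. Krt14, Krt16 and Krt17 have near-identical stretches and pseudogenes, so their separate counts are uncertain. The Ad-GFP organoid held 771, 431 and 570.2 CPM of Krt14, Krt15 and Krt17.

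Trp63, the gene of p63, was at 122 CPM in the tumoroid, 132 in the bronchiolar organoid and 138 in the mixed organoid. Ngfr, the surface receptor by which basal cells are sorted, was at 59.7 CPM in the tumoroid, 38.9 in the bronchiolar organoid and 76.7 in the mixed organoid. Neither passed the rule, while in the other 7 tumoroids Trp63 reached at most 24.1 CPM and Ngfr at most 0.311. Of the genes for laminin chains of the basement membrane, Lama3 was at 502 CPM against 559.9 and 448 and Lamb3 at 769.6 CPM against 476 and 439. Of the integrin genes whose products bind laminin, Itga6 stood at 292 CPM against 540.0 and 460.0, and Itgb4 at 785 CPM against 539.6 and 485. Collagen XVII (Col17a1), of the hemidesmosome, was lower at 41.3 CPM against 143 and 326, as were the desmosomal cadherin genes Dsg3 and Dsc3 and the alcohol dehydrogenase gene Adh7. Higher were Icam1, an adhesion molecule induced by inflammatory signals, at 1214 CPM against 397 and 358, Dapl1 at 25.6 CPM against 8.42 and 11.2 and the laminin receptor gene Bcam at 669 CPM against 293 and 301. Without the mixed organoid 5 basal genes were higher. Of the 24 genes, 20 lay above all other 7 tumoroids, against 23.3% of all genes.

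Among squamous and hillock genes more were called higher than lower, though the counts depended on the setting. Of 19 tested members (24 in the list), 5 were higher and 1 lower, with a median difference of -0.04. Krt6a, a keratin of injured and squamous epithelium, was at 951 CPM in the tumoroid, 167 in the bronchiolar organoid and 152 in the mixed organoid, 5.70-fold above the higher organoid. Krt6b, its near-identical neighbour, was at 34.0 CPM against 11.8 and 12.4, and reads shared between the pair make both values uncertain. Tgm1, a transglutaminase that cross-links the cornified envelope, was at 95.5 CPM in the tumoroid, 14.2 in the bronchiolar organoid and 12.6 in the mixed organoid. The other 7 tumoroids ranged from 18.8 to 149 CPM of Tgm1, so the bronchiolar tumoroid lay inside their range. Also higher were Grhl3, a transcription factor of barrier epithelium (19.4 CPM against 5.73 and 7.52), and Lypd3 (16.7 CPM against 5.92 and 6.97). Krt13, the keratin of hillocks, was lower, with 3 counts in the tumoroid and 2.09 and 14.7 CPM in the organoids. The envelope precursors did not pass: involucrin (Ivl) was at 28.7 CPM against 106 and 47.6 and Sprr1a at 209 CPM against 351 and 343. Ecm1, with the highest mean CPM of the list over the 3 samples though not in the tumoroid, was at 855 CPM against 736 and 803, and 15 of the 19 genes lay above the other 7 tumoroids, against 23.3% of all genes. With the mixed organoid left out, 3 genes of the list were lower. With the mean difference of the 6 other transplant tumoroids subtracted 5 were lower and the median was -0.19. With the Ad-GFP organoid added 3 were higher. Against the bronchiolar and the mixed organoid alone the medians were 0.22 and 0.081.

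Of 25 lung lineage factors, all tested, 4 were higher and none lower, and the median difference was 0.38. Sox2, the factor of the conducting airway, was at 151 CPM in the tumoroid, 123 in the bronchiolar organoid and 155 in the mixed organoid. In the other 7 tumoroids it reached at most 22.4 CPM, and in the Ad-GFP organoid it was at 193. Nkx2-1, the factor of lung identity, was at 210.2 CPM in the tumoroid, 112 in the bronchiolar organoid and 89.6 in the mixed organoid, just short of the rule at 1.87 times the higher organoid. Sox9, a factor of distal progenitors, was at 53.3 CPM against 97.6 and 53.8. Higher were Foxa2 (92.2 CPM against 29.0 and 23.9), which with Nkx2-1 supports surfactant genes, Cebpa (159 CPM against 55.2 and 64.1), Tfcp2l1 (49.2 CPM against 22.8 and 11.6) and Irx2 (138 CPM against 63.1 and 63.4). Elf3, an epithelial factor and the most counted of the list, was at 332 CPM against 298 and 515. With the bronchiolar organoid left out, 2 factors were lower.

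Alveolar type 2 genes moved in both directions. Of 24, all tested, 5 were higher and 4 lower, with a median difference of 0.58 against -0.05 over all genes. Sftpc, the surfactant protein characteristic of type 2 cells, was at 1684 CPM in the tumoroid, 145 in the bronchiolar organoid and 669 in the mixed organoid, 2.52-fold above the higher organoid. Sftpb, a surfactant protein shared with club cells, was at 4062 CPM in the tumoroid, 1659 in the bronchiolar organoid and 1245 in the mixed organoid. Cxcl15, a lung chemokine, was at 1421 CPM against 460.2 and 351 and Lgi3 at 32.4 CPM against 6.33 and 15. Against the other tumoroids these are low levels for Sftpc, since those ranged from 9481 to 65487 CPM, and 16 of the 24 genes lay below all of them, against 12.4% of all genes. Lower than both organoids were Napsa, a protease that processes surfactant proteins (6.35 CPM against 35.3 and 84.8), the lysozyme gene Lyz2 (82.7 CPM against 281 and 418), S100g and Hc. Napsa, Lyz2 and Hc were also called lower in the 6 other transplant tumoroids, at -3.47, -3.31 and -6.47 log2 units, while S100g was not. Of the lamellar body genes, Lamp3 stood at 80.9 CPM against 110.0 and 85.3, and Abca3 at 122 CPM against 134 and 128. In the Ad-GFP organoid Sftpc was at 96.5 and Sftpb at 326 CPM.

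Of 20 alveolar type 1 genes 0 were higher, against 5.30% of all genes, and 1 was lower (5%, against 11.1%), with a median difference of -0.15. Ager, the receptor that marks type 1 cells, was at 244 CPM in the tumoroid, 179.9 in the bronchiolar organoid and 65.2 in the mixed organoid. Hopx, a cofactor of type 1 cells, was at 73.1 CPM against 52.0 and 51.7, and Aqp5, a water channel and the most counted of the list, at 1467 CPM against 1011 and 1278. The lower gene was Scnn1g, a subunit of the epithelial sodium channel, at 2.73 CPM against 10.2 and 6.17. Against the mixed organoid alone 2 genes were higher and 3 lower, and against the bronchiolar organoid alone 3 were lower. Ly6a, the gene of the Sca1 antigen used for the sort, was at 903 CPM in the tumoroid, 908 in the bronchiolar organoid and 1353 in the mixed organoid.

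Of 16 tested genes of the Notch pathway, which steers airway cells between secretory and ciliated fates, 3 were higher and 1 lower, with a median difference of 0.59. Dll1, a ligand, was at 62.7 CPM against 22.9 and 28.5, Nrarp, a feedback inhibitor that Notch induces, at 51.1 CPM against 22.3 and 20 and Dlk1, a non-canonical ligand, at 33.0 CPM against 2.47 and 9.62. Hey1, a target, was lower at 1.65 CPM in the tumoroid, 23.6 in the bronchiolar organoid and 35.7 in the mixed organoid. Hes1, another target, was at 158 CPM against 88.1 and 85.4 and did not pass, nor did Jag1, the most counted member, at 161 CPM against 134 and 92.8. The targets thus did not move together, and without the mixed organoid 5 genes of the list were higher.

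Secreted defence genes changed in both directions, 7 of 23 tested being higher and 5 lower with a median difference of -0.14. Reg3g, a C-type lectin that kills bacteria, was at 0.179 CPM in the tumoroid, 1084 in the bronchiolar organoid and 1796 in the mixed organoid, with 4 counts in the tumoroid. The Ad-GFP organoid held 4358 CPM, and the other 7 tumoroids at most 0.124. Lactotransferrin (Ltf), the most counted of the list, was at 3590.0 CPM in the tumoroid, 8987 in the bronchiolar organoid and 12287 in the mixed organoid. Lcn2, which binds bacterial siderophores, was lower at 1712 CPM against 3486 and 3548, as were the beta-defensin gene Defb1 and the cytokine gene Il36g. The higher genes include Cxcl3, at 46.0 CPM against 9.33 and 4.36, and Cxcl2, at 84.3 CPM against 24.8 and 23.6. Cxcl1, at 237 CPM against 83.4 and 77.3, and Cxcl5, at 1229 CPM against 464 and 404, were also higher. These genes encode chemokines that draw neutrophils, and they were not a list of their own. Ccl20, which draws cells that carry CCR6, was at 103 CPM in the tumoroid, 22.8 in the bronchiolar organoid and 25.1 in the mixed organoid. Slpi, an antiprotease, and S100a8 complete the higher genes, S100a8 at 1.25 CPM.

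For interferon-stimulated genes the difference depended on the organoid. Of 28 genes 3 were lower (10.7%, close to the 11.1% of all genes) and none higher. The median difference was -0.86, but it was -0.10 against the bronchiolar and -1.80 against the mixed organoid alone. Against the mixed organoid alone 22 genes were lower, and against the bronchiolar organoid alone 3 were higher. Ifit1, an antiviral RNA-binding protein, was at 8.58 CPM in the tumoroid, 20.6 in the bronchiolar organoid and 103 in the mixed organoid, and Ifi44 at 14.8 CPM against 73.5 and 194. Of 7 genes of MHC class II, which epithelial cells of the lung can express, 1 was higher, H2-DMb1 at 29.5 CPM against 13.5 and 14.4, and Cd74, the invariant chain, was at 469 CPM against 369 and 281. With library totals none of the 7 was higher. Of 11 tested gastric and intestinal genes 1 was higher, Hnf4a at 1.56 CPM against 0.303 and 0.192, and 5 were lower, among them Anxa10 at 8.81 CPM against 33.4 and 29.4. Without the bronchiolar organoid 2 were higher.

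Of 28 genes of S phase 1 was higher (3.57%, against 5.30% of all genes) and none lower, with a median difference of 0.55, and of 30 genes of G2 and mitosis 4 were higher (13.3%) and none lower, with a median of 0.62. Without the mixed organoid the higher genes numbered 4 and 9. Plk1, a mitotic kinase, was at 36.6 CPM against 11.0 and 14.5 and Tyms, a thymidylate synthase, at 25.2 CPM against 9.22 and 11.6. Top2a, the most counted of the mitotic list, was at 129 CPM against 82.8 and 103 and Pcna, the replication clamp, at 139.8 CPM against 81.7 and 82.9. Of 31 targets of MYC 1 was higher (3.23%, against 5.30% of all genes), Srm at 39.3 CPM against 19.2 and 17.9, with a median of 0.29. Myc itself was at 135 CPM in the tumoroid, 85.7 in the bronchiolar organoid and 70.2 in the mixed organoid. No MYC target was higher with library totals, with TPM or with the other tumoroids' difference subtracted. The 13 housekeeping genes had a median of 0.37 with none called, and 1 was higher without the mixed organoid.

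Of 24 targets of ERK, the kinase downstream of EGFR, 2 were higher (8.33%, against 5.30% of all genes) and none lower, with a median of 0.22. The higher targets are Phlda1 (563 CPM against 249 and 195) and Fosb (99.1 CPM against 38.3 and 49.0). Dusp6, a phosphatase that ERK induces against itself, was at 298 CPM against 229.8 and 252. With library totals 1 ERK target was higher and with TPM none. Of 14 tested receptors and ligands of the ERBB family 1 was lower (7.14%, against 11.1% of all genes), Nrg4. Without the bronchiolar organoid 1 was higher and 3 lower, and without the mixed organoid 2 were lower. The mouse Egfr gene was at 77.8 CPM in the tumoroid, 195 in the bronchiolar organoid and 143 in the mixed organoid, short of the rule, and the ligand gene Ereg, the most counted of the list, was at 277 CPM against 354 and 278. The human transgene was not analysed.

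Targets of p53 and the INK4 genes held 5 higher and 1 lower of 23, with a median of 0.26. Cdkn2a, which encodes p16 and p19ARF, was at 187 CPM in the tumoroid, 54.7 in the bronchiolar organoid and 48.8 in the mixed organoid. Bbc3, the death-promoting protein PUMA, was at 63.0 CPM in the tumoroid, 10.2 in the bronchiolar organoid and 13.9 in the mixed organoid. Pmaip1, the related protein NOXA, was lower at 92.0 CPM in the tumoroid, 369 in the bronchiolar organoid and 229 in the mixed organoid. Without the mixed organoid 3 genes of the list were lower. Gdf15, a stress cytokine, was higher at 17.7 CPM against 4.91 and 3.06, as were Bax and Phlda3, while Cdkn1a, the cell cycle inhibitor p21 and the most counted of the list, was at 326 CPM against 254 and 253. Of 19 tested genes of NRF2 and glutathione 4 were higher and 1 lower, with a median of 0.34. Aldh3a1 was at 69.6 CPM against 12.6 and 27.6 and Gstm1 at 364 CPM against 96.8 and 128, both detoxifying enzymes. In the Ad-GFP organoid they stood at 123 and 341 CPM, so neither would be called higher with that organoid added. The cystine transporter gene Slc7a11 was lower at 19.3 CPM against 46.6 and 67.8. Of 12 genes of PRC2, the complex that methylates histone H3, 1 was higher (8.33%, against 5.30% of all genes), Epop at 26.7 CPM against 12.4 and 12.4. The catalytic subunit gene of PRC2, Ezh2, was at 46.9 CPM against 42.5 and 39.6. Of 18 genes of epithelial adhesion and mesenchymal transition 1 was lower (5.56%, against 11.1% of all genes), Zeb1 at 8.72 CPM against 22.8 and 23.1. Fn1, the most counted, was at 2984 CPM against 5492 and 3425. Without the mixed organoid 1 gene of this list was higher and 2 were lower.

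Markers of other cells show what else the cultures held. Of 19 tested fibroblast genes (20 in the list) 4 were lower and none higher, with a median of -0.77. Their summed level was 4565 CPM in the tumoroid, 6184 in the bronchiolar, 8165 in the mixed and 3861 in the Ad-GFP organoid. Col1a1, the most counted, was at 880.0 CPM in the tumoroid, 1184 in the bronchiolar organoid and 1907 in the mixed organoid, and the transgene sits at its locus. Postn, a matrix protein, was lower at 90.0 CPM against 249 and 347, as were Col5a2, Lum and Pdgfra, and Tcf21 had 0 counts in all 3 samples. Of 7 tested smooth muscle and pericyte genes (8 in the list) 1 was lower, Myh11 with 4 counts, with sums of 107, 141 and 205 CPM and Acta2 as the most counted gene. Without the bronchiolar organoid 9 fibroblast and 3 smooth muscle genes were lower, and without the mixed organoid 1 smooth muscle gene was higher and 2 were lower. Fibroblast transcripts were therefore present in all 3 samples, and their part in the differences of the epithelial lists was not tested.

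Endothelial and immune cells left few transcripts. Of 4 tested endothelial genes (12 in the list) 1 was higher, Vwf at 1.03 CPM against 0.399 and 0.337, and none with library totals, with TPM, at 10 CPM or with the Ad-GFP organoid added. The list summed to 25.2, 19.2 and 22.3 CPM, with Eng the most counted, and of the defining markers Emcn had 0 counts in all 3 samples, Cldn5 and Tie1 had 0 in the tumoroid and Cdh5 had 1. Of 4 tested immune genes (12 in the list) 2 were higher, Csf1r at 9.48 CPM against 1.31 and 1.15 and Cd79a at 3.62 CPM against 0.606 and 0.481, and Itgam was lower. Their sums were 27.1, 26.2 and 38.9 CPM, with Cd68 the most counted. Csf1r overlaps Hmgxb3 on the opposite strand, which had 48.5 CPM in the tumoroid, so the counts of Csf1r are uncertain. Without the bronchiolar organoid 2 immune genes were lower, and without the mixed organoid 2 endothelial genes were higher. The defining markers Ptprc, Adgre1, Tyrobp, Fcer1g, Ms4a1 and Laptm5 had 0 counts in the tumoroid.

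Of 13 neuroendocrine genes 3 were tested, and the defining genes Calca and Chga had 0 counts in the tumoroid, although Ddc (1.16 CPM against 0.271 and 0.321) and Snap25 (1.97 CPM against 0.893 and 0.721) were called higher. None of the 6 tested genes of tuft cells and ionocytes (13 in the list) was called, though 1 was lower without the bronchiolar and 1 higher without the mixed organoid, and Foxi1, the factor of ionocytes, had 0 counts. Moxd1, the most counted of that list, was at 74.1 CPM against 26.6 and 39.2, above all other 7 tumoroids though short of the rule. Among 5 tested sex-linked genes, Xist, expressed from the inactive X, was at 11.3 CPM in the tumoroid, 42.5 in the bronchiolar organoid and 32.2 in the mixed organoid, and Ddx3y, of the Y chromosome, at 50.1 CPM in the tumoroid, 122 in the bronchiolar organoid and 102 in the mixed organoid. Transcripts of both kinds were present in all 3 samples, and both genes were called lower. With DESeq2 size factors, with TMM over the 3 samples or with the Ad-GFP organoid added 1 sex-linked gene was lower, and with the other tumoroids' difference subtracted none was and 3 were higher.

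The largest differences by the naming rule, 15 in each direction, run across several of these programs. Among the higher genes, Car4, a membrane carbonic anhydrase, was at 11.0 CPM in the tumoroid, 0.016 in the bronchiolar organoid and 0.016 in the mixed organoid, both organoid values being 1 count. Sncg, gamma-synuclein, was at 56.5 CPM against 2.54 and 2.77, Kng2, a kininogen, at 21.1 CPM against 1.20 and 0.753 and Adtrp at 10.5 CPM against 0.223 and 0.0962. Sp5, a transcription factor induced by Wnt signals, was at 19.9 CPM against 1.77 and 1.92, Ccn3 at 12.8 CPM against 1.15 and 0.593, Lman1l at 25.9 CPM against 0.223 and 0.112, Ank1 at 24.0 CPM against 3.24 and 1.79 and the peptidase gene Enpep at 15.6 CPM against 1.93 and 1.68. The remaining higher genes besides Upk3a are uncertain: mt-Co3, Rps12-ps3, Gm8797 and Gm21887 may share reads with similar sequences elsewhere in the genome, which was not tested, and Gm20481 overlaps the heat shock gene Hspa1a on the opposite strand. For mt-Co3 the organoids themselves were at 0.0957 and 35.7 CPM. The strand of counting is not stated for these files. S100g and Nrg4, named above, also overlap protein coding genes on the opposite strand, Ctps2 and Fbxo22.

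Among the lower genes, Prom1, the membrane protein CD133 of luminal progenitors, was at 1.43 CPM in the tumoroid, 187 in the bronchiolar organoid and 221 in the mixed organoid, 131-fold below the lower organoid. Tmprss11d, the airway trypsin-like protease, was at 0.224 CPM in the tumoroid, 39.9 in the bronchiolar organoid and 71.9 in the mixed organoid, with 5 counts in the tumoroid. Tmc5, Dmrt2, Dhrs9, Sult1c1 and Gm4070 had 0 counts in the tumoroid, at least 210.1-, 209.9-, 141-, 96.8- and 85.4-fold below the lower organoid. Of the others, Cfap65, Cdhr4, Dnah3 and Dnah6 are axoneme genes, and Reg3g, Agr2, Krt17 and Lypd2 stand in the lists above. Of all 1653 lower genes 169 had 0 counts in the tumoroid.

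The other tumoroids give the same platform and transplant contrast with no sample shared. For the AT2 tumoroids the sorting field reads NGFR negative while the origin field reads AT2, and the origin was used to group them. For the same 14880 genes, 6 tumoroids from AT2 cells and mixed BASCs were set against the AT2 and alveolar BASC Ad-Cre organoids, and a gene counted when the means differed by at least 1 log2 unit and the samples did not overlap, which gave 804 higher genes (5.40%) and 1279 lower (8.60%). Shared with the bronchiolar tumoroid were 272 higher genes (34.5% of its 788 and 33.8% of the 804) and 507 lower genes (30.7% of its 1653 and 39.6% of the 1279), while 30 of its higher genes were lower there and 7 of its lower genes higher. In that contrast 25 of 28 genes of S phase and 28 of 30 of G2 and mitosis were higher. Of the 43 tested axoneme genes 5 were called lower there, and 4 of these are among the 39 that were lower in the bronchiolar tumoroid. The median difference of the axoneme genes there was -2.10, against -0.13 over all genes, with 40 of the 43 below 0. Subtracting it gene by gene leaves a list median of -2.96 in the bronchiolar tumoroid. In that tumoroid 18 members were at or under the floor, and Dnah5 reached at most 0.0919 CPM in the other 7. Where both sides are near 0 the remainder depends on the organoid levels and the prior count, and cannot show a loss beyond that of the other tumoroids.

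Among the tumoroids alone, which share the platform, the bronchiolar tumoroid lay above all other 7 for 3465 genes (23.3%) and below all of them for 1845 (12.4%). For the 43 tested axoneme genes these numbers were 13 and 6, and for the 16 tested goblet genes 6 and 2. Of the 788 genes called higher in the bronchiolar tumoroid 295 (37.4%) lay above the other 7, and of its 1653 lower genes 297 (18%) lay below them. With the mean difference of the 6 other transplant tumoroids subtracted from each gene, 1178 genes were higher and 1027 lower, and 7 of the 30 panel genes changed sign. Of these, 2 had been called: Krt5 went from -2.32 to 5.79 and Scgb3a1 from -3.19 to 3.38. In the other 7 tumoroids Krt5 reached at most 0.371 CPM and Scgb3a1 at most 0.495, so the exact size after subtraction depends on the prior count. The 5 that had not been called are Trp63 (from -0.15 to 1.34), Egfr (-1.10 to 0.47), Myc (0.80 to -1.41), Ezh2 (0.19 to -1.20) and Col1a1 (-0.77 to 0.39).

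Taken by program, the bronchiolar tumoroid kept the secretoglobins Scgb1a1 and Scgb3a2, Cyp2f2, Foxj1, Trp63, Ngfr, Sox2, Lama3 and Lamb3, none of them past the rule. Of these, Scgb3a2 and Foxj1 would be higher with the mixed organoid left out, by 2.09 and 1.06 log2 units, and Scgb1a1 with the bronchiolar organoid left out, by 2.08. Lower by the rule were 39 of 43 axoneme genes and 13 of 16 goblet genes. In the 6 other transplant tumoroids 4 of these goblet genes were also called lower, and the axoneme median was -2.10. The lists of the kept club, regulator and basal markers also held lower genes, 9 of 23, 6 of 17 and 7 of 24. Their higher members numbered 1, 0 and 3, and at 10 CPM 1 regulator was lower. Among the lower genes were Bpifa1, Scgb3a1, Mcidas, Deup1, Foxn4, Col17a1, Dsg3, Dsc3, Adh7 and the keratin genes Krt5, Krt15 and, with uncertain counts, Krt17. Of these, Krt5, Scgb3a1 and Bpifa1 were still present at 144, 102 and 101 CPM, and Krt5 and Scgb3a1 turned positive once the other tumoroids' difference was subtracted. For Krt5 and Scgb3a1 the subtracted values, -8.11 and -6.56, come from tumoroids near 0 set against AT2 and alveolar BASC organoids. Their size depends on the prior count. Krt14, with uncertain counts, was not lower, and would be higher with the mixed organoid left out. Higher were Upk3a, Krt6a with uncertain counts and Tgm1, the last of them inside the range of the other 7 tumoroids. Of the 23 tested defence genes 7 were higher and 5 lower, the higher ones including Cxcl1, Cxcl2, Cxcl3 and Cxcl5. Cdkn2a was higher as well, by 1.85 log2 units, but by 1.86 in the 6 other transplant tumoroids, so subtraction leaves almost no difference. Of the alveolar type 2 genes Sftpc and Sftpb were among 5 higher and Napsa and Lyz2 among 4 lower, and Sftpc stayed below all other 7 tumoroids. Napsa and Lyz2 were also lower in the 6 other transplant tumoroids, at -3.47 and -3.31 log2 units. The organoids came before and the tumoroid after transplantation and on another platform, and whether any of these differences would recur in another bronchiolar tumoroid was not tested.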

How the data were processed

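The authors trimmed reads with Trimmomatic 0.39, mapped them to GRCm38 with STAR 2.6.1d and deposited the expected count of RSEM 1.3.2 per gene, without normalization between samples. The deposited TPM, a length-scaled share of transcripts, served for comparisons between genes and an alternative setting. Expected counts were rounded, scaled with TMM factors of edgeR 4.0.16 (R 4.3.3) over all 18 samples and turned into CPM, and into log2 CPM with a prior count of 2. The difference is the tumoroid minus the mean of both organoids. Symbols come from the GENCODE vM21 annotation. Total expected counts were 23208978 in the tumoroid, 63217023 in the bronchiolar, 62248695 in the mixed and 58215677 in the mixed Ad-GFP organoid.

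Named genes are a panel of 30, the 15 largest differences in each direction among called protein coding genes with at least 10 CPM in the tumoroid or, for lower genes, in both organoids, and, in each of 31 lists, up to 4 called members a direction and the most counted, the member with the highest mean CPM over the 3 samples. Not every gene that meets the rule is reported, and other list members were named after their values were seen. The members and lists were chosen with earlier results of these data known.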

Additional observations from a re-analysis of the deposited data

Results flagged for a closer look

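Among the named genes, 2 were called higher in the bronchiolar tumoroid while the 6 other transplant tumoroids lay below the AT2 and alveolar BASC Ad-Cre organoids, with no overlap between the samples in that contrast. Krt6b, a keratin of injured epithelium, differed by 1.49 log2 units from the organoid mean in the bronchiolar tumoroid and by -2.19 in the others, and its near-identical neighbour Krt6a makes its counts uncertain. Phlda3, a p53 target that restrains AKT, differed by 1.21 and by -1.21. Neither difference between the sets was tested. Over all tested genes, 30 were higher in the bronchiolar tumoroid and lower in the others, and 7 the other way.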

How the results depend on the processing

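The counts of 788 higher and 1653 lower genes came to 833 and 1593 with DESeq2 size factors, 718 and 1739 with library totals, 892 and 1538 with TMM over the 3 samples, 793 and 1677 with a prior count of 0.5, 677 and 1352 with the Ad-GFP organoid added, and 1055 and 2066 when the mean of the organoids was the reference. Counts moved by over 1.5 times in at least 1 direction with no filter (1829 and 3108), at 10 CPM (389 and 650), with log2(TPM + 1) (431 and 1057), at 2 log2 units (221 and 655), without the mixed organoid (1210 and 2134), with the other tumoroids' difference subtracted (1178 and 1027) and, an alternative chosen after seeing the data, with protein coding genes only (520 and 1341). The filters, the larger fold and the gene type change the number of genes counted by construction.

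List medians moved as follows, and the cause was not tested. The alveolar type 2 median was 0.60 with DESeq2 size factors, 0.53 with totals, 0.64 with TMM over the 3 samples, 0.70 at 10 CPM, 0.36 with TPM and 0.90 with the Ad-GFP organoid. The club median was -0.49 with TMM over the 3 samples, -0.93 with no filter, -0.16 at 10 CPM, -0.75 with TPM and -0.97 with the Ad-GFP organoid. For hillock genes it was -0.15 with no filter, 0.095 at 10 CPM and 0.12 with the Ad-GFP organoid, for regulators -0.65 at 10 CPM and -1.54 with the Ad-GFP organoid, for the axoneme -2.26 with TPM and -5.72 with the Ad-GFP organoid, and for basal genes -0.21 with TPM. Member counts became 1 goblet gene higher with no filter, 1 regulator and 2 alveolar type 2 genes lower at 10 CPM, 3 hillock genes higher with the Ad-GFP organoid, and, with TPM, 1 regulator lower, 1 basal and 3 alveolar type 2 genes higher.

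Leaving out each organoid in turn gave 1014 and 1210 higher and 2071 and 2134 lower genes. The medians ranged from -0.49 to -0.40 for club, -1.11 to -0.71 for regulator, -0.27 to -0.10 for basal and 0.081 to 0.22 for hillock genes. Higher members numbered 3 and 3 for club, 0 and 1 for regulator and 3 and 5 for basal genes, and lower hillock members 1 and 3.

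With the mean difference of the 6 other transplant tumoroids subtracted, 1178 genes were higher and 1027 lower, Krt5 turned to 5.79 and Scgb3a1 to 3.38. Medians were 0.66 for club, -1.15 for goblet, -2.96 for axoneme, 0.96 for basal, -0.19 for hillock and 1.16 for alveolar type 2 genes. Higher were 9 club, 1 goblet, 1 regulator, 11 basal and 11 alveolar type 2 genes, and lower 7 goblet, 3 basal, 5 hillock and 1 alveolar type 2 genes. By construction this removes what the tumoroids share. Where the other tumoroids are near 0 counts, as for Krt5, Scgb3a1 and Dnah5, values after subtraction depend on the organoid levels and the prior count.

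Over all settings, 559 list counts, 215 list medians and 280 values of single panel genes stayed within their limits, against 123, 125 and 47 that moved and 2 values of called panel genes that changed sign. For a panel gene the limit was the standard deviation of its 2 organoid values. Leaving out 1 organoid cannot exceed that limit, and the filters leave single-gene values unchanged. Panel values under these settings therefore stayed within the limit by construction and are no check. No paired analysis was possible because each group is 1 sample. At the tumoroid's depth, 3 counts are 0.134 CPM, and 331 lower genes lie at or under that floor.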

Other observations

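Gene classes outside the lists differed between the tumoroid and the organoids. Of 459 processed pseudogenes 157 were higher and 54 lower, with a median difference of 0.57, and of 21 microRNA genes 13 were higher and 1 lower. Of 125 genes of the annotation's class TEC, transcripts still awaiting experimental support, 5 were higher and 61 lower, with a median of -1.14. The same medians in the 6 other transplant tumoroids were 0.46 for processed pseudogenes, 1.82 for microRNA genes and -1.02 for the TEC class. Mitochondrial genes took 2.26% of counts in the tumoroid, 2.94% in the bronchiolar and 3.07% in the mixed organoid, and ribosomal protein genes 3.57%, 2.33% and 2.73%. The platform and the groups cannot be told apart in any of these values.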
